A study of Mus musculus with 4 samples.

Results

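The genes described here are 8 cardiac ion channel genes: Kcnj2, Kcnd2, Kcnd3, Kcnip2, Kcnq1, Kcnh2, Kcnn2 and Hcn4. They were chosen by name, with earlier results of these data known, out of 27998 genes in the files. All 8 encode potassium channel subunits or a pacemaker channel, and none encodes a sodium channel, so sodium channel genes were read from a list of 47 other cardiac channel genes. That list has 31 potassium channel genes, 3 pacemaker channel genes and 13 genes of sodium channels and their partners.

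Nuclei came from right ventricles (RVs) of wild-type C57/BL6J mice at P21. The operation was done at P7, and the pups stayed with their mother afterwards. The methods also list injections of cyclosporine A or saline after the operation, and the library titles name neither. In the RVVO group the abdominal aorta and the inferior vena cava were joined by a puncture, which overloads the RV with volume, and in the sham group the same operation was done without the puncture. There were 2 sham and 2 RVVO libraries, and neither the labels nor the methods say whether a library is 1 mouse or a pool, so the p-values measure only the spread between these libraries. Lists of 4 values run in the order sham 1, sham 2, RVVO 1 and RVVO 2.

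Cardiac channels shape the action potential. Sodium current starts it, the transient outward potassium current gives the early repolarisation that is large in mouse ventricle, delayed rectifier currents end it in many species, and the inward rectifier holds the resting potential between beats. The pacemaker current is carried by hyperpolarisation-activated channels, which are found mainly in the sinoatrial node and the conduction system, and small-conductance calcium-activated potassium channels are best known in the atrium.

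The libraries held 8700 to 15568 barcodes and 51010039 to 64739206 UMIs each, with medians of 2262 and 2311 UMIs per barcode in the sham and 3378 and 4705 in the RVVO libraries. After filtering, 43115 nuclei were left. Nuclei with at least 1% of their UMIs from Ryr2, the calcium release channel of the sarcoplasmic reticulum, were taken as cardiomyocytes (CMs). There were 11607, with 2334, 2816, 2718 and 3739 per library, and 1159 of the nuclei kept lay within 0.1 percentage points of the limit. All 8 CM markers were found in every library, with a summed level of 42812 to 45329 UMIs per 1000000 (CPM). They were also found in every library in pericytes and endothelial cells, at lower summed levels. Of the CMs, 11130 lay in clusters that the markers named as CMs. Those clusters held 2769 more nuclei below the Ryr2 limit, with 858, 761, 232 and 918 per library, which entered neither the CMs nor another lineage. Libraries stood apart in several ways. Xist, the transcript of the inactive X chromosome, was at 1477 and 1486 CPM in the sham and 0.828 and 0.650 in the RVVO libraries, and the Y-linked Uty was at 0.101, 0.0260, 322 and 318 CPM, so sex and surgery cannot be told apart. RVVO 1 was deeper, with a median of 8520 UMIs per CM against 4906 to 5069 in the others. The median mitochondrial share of the nuclei kept was 1.15%, 1.31%, 0.606% and 0.499%, and 61, 119, 1 and 0 CMs had under 1000 UMIs. Both measures thus also differed between sham and RVVO, and their part in the differences below was not tested. Most CM clusters belonged mainly to 1 library, for example 1792 of the 1893 nuclei of a cluster led by interferon-inducible genes to sham 1 and 2022 of 2075 in another to sham 2. Pairs of libraries shared 28 to 70 barcodes.

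None of the 8 genes passed the test between RVVO and sham in CMs, and Kcnd2 and Kcnip2 were the 2 whose levels were lower in both RVVO libraries than in both sham libraries. The same held for 8.7% of 14835 genes with at least 40 UMIs. Kcnd2 and Kcnd3 encode the pore subunits of the transient outward current, and Kcnip2 encodes the calcium-binding subunit that escorts them to the membrane. The edgeR quasi-likelihood test with Benjamini-Hochberg adjustment called 0 of the 8 genes, beside 0.0473% of the 14786 genes tested. At an unadjusted p under 0.05 it passed 1 of the 8 (Kcnd2), beside 5.66% of all genes, and DESeq2 called 0 of the 8. The median log2 fold change of the 8 genes was -0.08, beside 0.01 over all genes tested. In simulated counts the edgeR test recovered 26% of planted log2 changes of 1 and 84% of those of 2, so smaller changes can be missed.

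Kcnd2 lies on chromosome 6 from 21215503 to 21729805 on the plus strand of GRCm38 (GENCODE), and Kcnip2 on chromosome 19 from 45791839 to 45816061 on the minus strand. Their promoters are shown because these 2 genes encode partners of the same channel and were the pair with lower levels in both RVVO libraries. The 250 bases upstream of the RefSeq transcript start (GRCm38.p6) are given 5′ to 3′ on the strand of the gene, chr6:21215096-21215345 for Kcnd2 and chr19:45816064-45816313 for Kcnip2, with capitals for an E-box.
Kcnd2: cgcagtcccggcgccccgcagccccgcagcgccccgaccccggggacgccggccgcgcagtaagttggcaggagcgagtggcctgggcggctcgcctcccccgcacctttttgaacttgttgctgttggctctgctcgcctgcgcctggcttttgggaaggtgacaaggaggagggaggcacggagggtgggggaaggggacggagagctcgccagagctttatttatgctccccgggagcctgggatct
Kcnip2: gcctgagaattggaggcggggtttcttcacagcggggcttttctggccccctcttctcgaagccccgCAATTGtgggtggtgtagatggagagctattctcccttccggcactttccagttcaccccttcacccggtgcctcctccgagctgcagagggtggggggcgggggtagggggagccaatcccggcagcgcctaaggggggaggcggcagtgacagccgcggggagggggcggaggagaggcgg

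Both promoters were rich in G and C. In the window of 300 bases that ends 50 bases after the start, Kcnd2 had 68.7% GC and 26 CpG sites and Kcnip2 67% and 18, beside medians of 52.7% and 7 over 32851 promoters of that length. Of 4 motifs searched on both strands, the TATA box TATAAA was in 13.6% of all promoters, the GATA motif AGATAA in 11.2%, the MCAT motif CATTCC in 14.7% and the E-box CANNTG in 72.3%. The Kcnd2 window held none of these, and the Kcnip2 window held 1 E-box at base 68, which overlaps no other of these motifs. A promoter was matched for 6 of the 8 genes, all but Kcnq1 and Kcnn2.

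Kcnd2 stood at 6437 and 5610 CPM in the CMs of the sham libraries and at 4928 and 4288 CPM in those of the RVVO libraries. The order was sham 1, sham 2, RVVO 1, RVVO 2, with no overlap between the groups. The means were 6023 ± 584 and 4608 ± 452 CPM (SD, n = 2 each), and the log2 fold change was -0.50 with an SE of 0.15 (edgeR adjusted p = 0.856). It lay between -0.58 and -0.35 over 16 alternatives, with adjusted p from 0.233 to 1, and was nearest to 0 where CMs were taken from named clusters. In a nucleus thinned to 1000 UMIs, at least 1 Kcnd2 UMI was found in 92.4%, 91.0%, 91.6% and 90.3% of CMs. Shares this near to all nuclei leave little room to show a difference in level, and they overlapped between the groups. Fibroblasts, a lineage without an action potential, had 14.8% to 24.8% with a UMI at the same depth.

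Kcnip2 had 178, 245, 146 and 176 CPM in CMs. RVVO 2 lay just under sham 1, and sham 2 was the highest by a wide margin. The means were 212 ± 47.2 in sham and 161 ± 21.6 CPM in RVVO (SD, n = 2 each), with a log2 fold change of -0.51 and an SE of 0.22 (edgeR adjusted p = 0.903). Sham 2 carried much of this difference, which was -0.25 without it and -0.74 without sham 1. The share of CMs with a UMI at 1000 UMIs was 15.2%, 20.7%, 13.9% and 15.9%, and here RVVO 2 lay above sham 1. Levels below both sham libraries in both RVVO libraries were found for 2 of the 8 genes and for 8.7% of 14835 genes with at least 40 UMIs. Levels above both were found for 0 of the 8 and for 29.2% of those genes.

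Kcnd3, the other pore subunit of the transient outward current, lies on chromosome 3 from 105452330 to 105674002 on the plus strand. In CMs it had 232, 283, 298 and 237 CPM, so each group held a low and a high library. The log2 fold change was -0.06 with an SE of 0.17 and a 95% interval of -0.50 to 0.38. The share of CMs with a UMI at 1000 UMIs was 18.5%, 21.8%, 24.1% and 19.6%, which also overlapped between the groups.

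Kcnj2, the inward rectifier of the resting potential, is counted by the study among maturation genes of CMs. It lies on chromosome 11 from 111066164 to 111076821 on the plus strand. Its level in CMs was 35.6, 30.7, 34.4 and 28.4 CPM, and in each group replicate 1 was the higher. The log2 fold change was -0.19 with an SE of 0.17 and an interval of -0.62 to 0.23. At 1000 UMIs 2.73%, 2.52%, 3.20% and 2.75% of CMs had a UMI, so the share was slightly higher in the RVVO libraries where the level was not.

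Kcnq1 and Kcnh2 encode the pores of the slow and the rapid delayed rectifier. Kcnq1, on chromosome 7 from 143106362 to 143427042 on the plus strand, had 195, 256, 232 and 223 CPM in CMs. Both RVVO values lay between the 2 sham values, and the log2 fold change was -0.10 with an SE of 0.17. Kcnh2, on chromosome 5 from 24319589 to 24351604 on the minus strand, had 15.6, 14.0, 18.7 and 13.4 CPM. Its RVVO libraries held both the highest and the lowest value, and the log2 fold change was 0.00 with an SE of 0.22. The noncoding Kcnq1ot1 is transcribed from the opposite strand within Kcnq1, with 4060, 4676, 9664 and 6248 UMIs in CMs. In fibroblasts it had 9063 UMIs over the libraries beside 191 of Kcnq1, and in endothelial cells 10163 beside 1456. The 2 counts were thus far apart in these lineages. The sources used here do not say whether counting used strand, and how fully it separated the 2 transcripts was not tested.

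Kcnn2 encodes a small-conductance calcium-activated potassium channel. It had 614, 859, 931 and 729 CPM in CMs, with the lowest value in sham 1 and the highest in RVVO 1. The log2 fold change was 0.05 with an SE of 0.22 and an interval of -0.50 to 0.61. The share with a UMI at 1000 UMIs was 38.7%, 51.0%, 52.3% and 46.9%, in the same order of libraries.

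Hcn4, the main pacemaker channel of the sinoatrial node, lies on chromosome 9 from 58823412 to 58863175 on the plus strand and was close to the limit of detection. CMs held 19, 18, 52 and 21 UMIs in the 4 libraries, which are 1.33, 1.08, 1.74 and 0.944 CPM, and the groups overlapped. The exact 95% Poisson interval, which covers counting error only, was 0.799 to 2.07 CPM in sham 1 and 1.30 to 2.28 CPM in RVVO 1. The log2 fold change was 0.05 with an SE of 0.44, so a change of about 1 log2 unit in either direction lay inside its interval of -1.08 to 1.18. For the shares of CMs with a UMI at 1000 UMIs, the exact permutation test of 2 against 2 libraries gave p = 0.3333 or more for each of the 8 genes, and 0.3333 is the smallest p it allows.

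**Figure D1:**
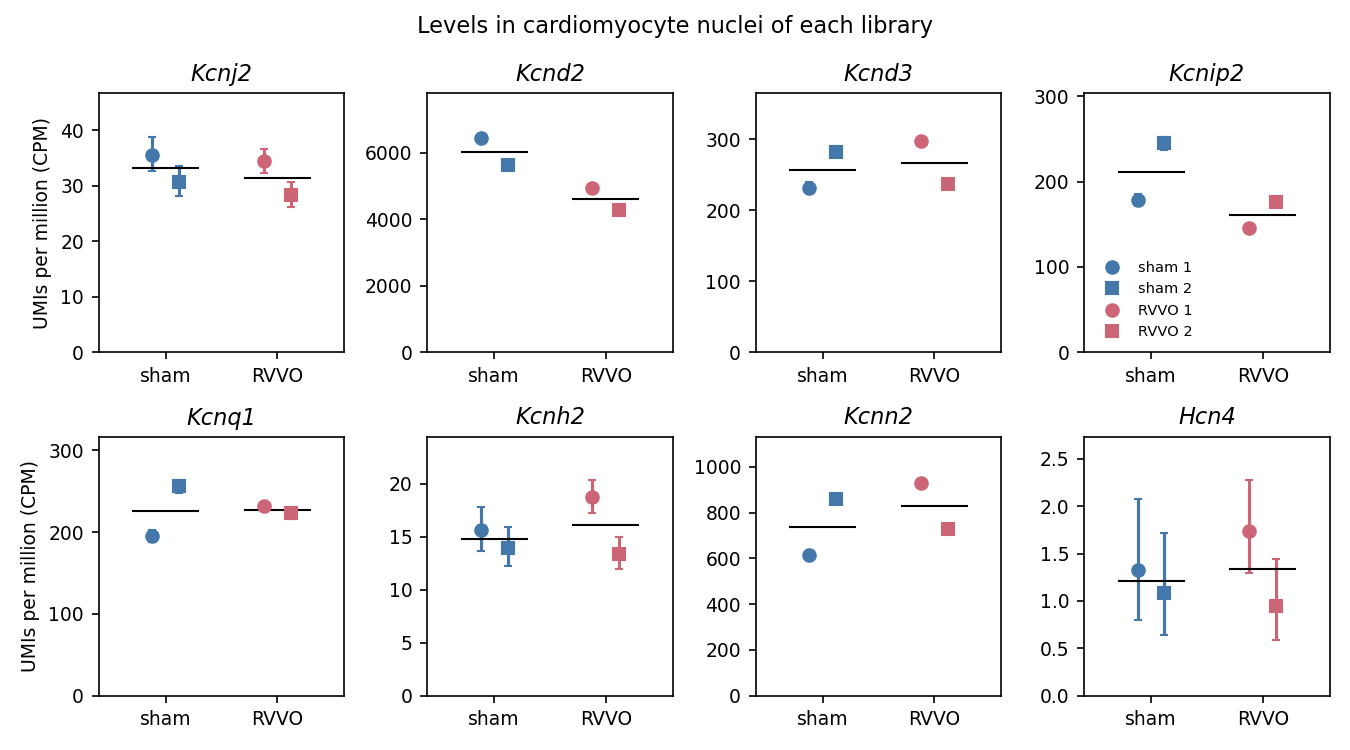
UMIs per 1000000 (CPM) of each gene in the CM nuclei of each library, with 1 panel per gene, an axis from 0, bars for the exact 95% Poisson interval of the count and a line for the group mean. Kcnd2 and Kcnip2 were lower in both RVVO libraries than in both sham libraries, and in the panels of the other 6 genes the groups overlapped.

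CPM in CMs was higher in RVVO by a median log2 of 0.12 over all genes, which TMM scaling removes from the fold changes above. Before scaling, the log2 ratio of mean CPM was -0.39 for Kcnd2 and -0.40 for Kcnip2, and it was 0.06 for Kcnd3 and 0.01 for Kcnq1, which have the opposite sign after scaling. Of the other channel genes, 39 were tested in CMs and 0 were called by edgeR, with 6 at an unadjusted p under 0.05, beside 5.66% of all genes. The 7 genes called among all genes were the Y-linked Eif2s3y, Kdm5d, Uty and Ddx3y and the sorting nexin Snx17, which were higher, and Xist and its antisense Tsix, which were lower in RVVO.

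Across cell types, Kcnd2, Kcnd3, Kcnip2, Kcnq1, Kcnh2 and Kcnn2 had their highest mean level in CMs. Kcnj2 was about as high in smooth muscle cells, and Hcn4 was too low to be tested. All nuclei were clustered together without the 8 genes and the channel list, and the other lineages were taken from named clusters, below the Ryr2 limit. In that way 8 lineages entered 1 fit with the CMs, over 34 sums of a lineage in a library with at least 50 nuclei. Below the limit, 5382 nuclei lay in unnamed clusters and entered no lineage. Clusters were drawn from other genes of the same nuclei, so the tests of this fit describe the lineages and are not independent support for their difference. Of 7 genes that passed the filter on low counts (Hcn4 did not), 7 were higher in CMs than in endothelial cells (38.1% of all genes were), epicardial cells (31.3%), fibroblasts (34.2%), glial cells (24.9%), lymphatic endothelial cells (28.0%), macrophages (33.2%) and pericytes (32.8%). Against smooth muscle cells 6 of 7 were higher (23.6% of all genes), and Kcnj2 was the exception. The filter ran once over all 34 sums, so a gene could pass it through its CM sums. Kcnh2, for example, had 4 UMIs in glial and 3 in lymphatic endothelial cells. The numbers of higher genes are therefore descriptions too. Other lineages also held CM RNA: 6 reference genes of CMs (Ttn, Trdn, Rbm20, Myom2, Tnnt2 and Myh6) stood at 2.11% to 87.7% of their CM level there. A level within that range cannot be told apart from free CM RNA.

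Kcnd2 also had a high level in epicardial cells. These cells, the mesothelial layer of the heart surface, had 3347, 2407, 3231 and 2506 CPM, which is 42.9% to 65.6% of the CM level in the same library. This exceeded the percentage of all 6 reference genes in 2 of 4 libraries. The level in CMs was higher than in epicardial cells by a log2 of 1.42 with an SE of 0.19 (edgeR adjusted p = 1.19e-07), and that in epicardial cells higher than in glial cells, the next in order, by 2.50 with an SE of 0.24 (adjusted p = 6.9e-10). From lymphatic endothelial cells down to macrophages, with means of 327 to 238 CPM, no 2 neighbours differed. Epicardial levels were 91 to 526 nuclei deep, and at 1000 UMIs 74.0% to 91.0% of the nuclei in the 4 libraries had a UMI.

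Kcnd3 had its second highest level in the same lineage. Epicardial cells had 92.4, 118, 78.3 and 89.7 CPM, below CMs by a log2 of 2.03 with an SE of 0.28 (adjusted p = 1.04e-07) and above pericytes by 1.43 with an SE of 0.32 (adjusted p = 0.0005, edgeR). At 26.3% to 41.8% of the CM level, the epicardial Kcnd3 values were within the range of the reference genes in every library. Below pericytes no neighbours in the order differed. Kcnip2 had no such second place: the means of the 8 other lineages ran from 15.7 to 21.8 CPM, and no neighbours among them differed beyond their spread. The level in CMs was higher than in epicardial cells, the next, by a log2 of 3.65 with an SE of 0.20 (adjusted p = 5.71e-17).

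Kcnj2 was about as high in smooth muscle cells as in CMs. The 3 libraries with at least 50 smooth muscle nuclei had 44.9, 23.9 and 33.2 CPM (sham 1, sham 2 and RVVO 2), from 16, 9 and 6 UMIs, and RVVO 1 had 20.8 CPM from 3 UMIs in 38 nuclei. That is 77.7% to 126% of the CM level, above the percentage of all 6 reference genes in 3 of 3 libraries. The fitted difference of CMs over smooth muscle cells was a log2 of 0.43 with an SE of 0.31 and an interval of -0.20 to 1.05 (edgeR adjusted p = 0.285). CMs exceeded epicardial cells by 2.29 with an SE of 0.26 (adjusted p = 3e-09), and no neighbours below differed, with means from 13.3 down to 5.98 CPM in lymphatic endothelial cells.

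Smooth muscle cells also came second for Kcnn2, with 110, 101 and 155 CPM in the 3 libraries. They lay below CMs by a log2 of 3.08 with an SE of 0.27 (adjusted p = 1.65e-11) and above glial cells by 1.19 with an SE of 0.39 (edgeR adjusted p = 0.0347). At 11.7% to 21.2% of the CM level, these values were within the range of the reference genes in every library. Below glial cells no neighbours differed.

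Kcnq1 was second in endothelial cells, at 53.4, 46.9, 56.4 and 49.4 CPM. CMs were higher by a log2 of 2.65 with an SE of 0.18 (adjusted p = 1.05e-14). The level was 18.3% to 27.4% of that in CMs, within the range of the reference genes. Endothelial cells were not separated from glial cells, the next in order (0.51 with an SE of 0.37, edgeR adjusted p = 0.364), and no neighbours further down differed. Kcnh2 in CMs was next to smooth muscle cells, 1.21 higher on the log2 scale with an SE of 0.48 (adjusted p = 0.0416), a call that rested on 8 UMIs in smooth muscle cells and was lost with DESeq2, with another scaling, with a lower Ryr2 limit, without sham 1 and without RVVO 2.

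Most Hcn4 UMIs lay in CMs. Over the libraries, CMs had 110 UMIs, or 1.32 CPM, endothelial cells and fibroblasts 4 each, or 0.141 and 0.246 CPM, and macrophages 1, or 0.159 CPM. In lymphatic endothelial cells the 1 UMI was in sham 1, and it equals 0.744 CPM over the 4 libraries and 2.98 CPM in that library, with an exact Poisson interval of 0.0755 to 16.6 CPM there. Epicardial cells, pericytes, smooth muscle cells and glial cells had 0. With 3 UMIs over the libraries as the limit that a count of 0 allows, this is up to 0.773 CPM in epicardial cells and 0.491 in pericytes, both under the level of CMs, and up to 2.83 in smooth muscle cells and 2.96 in glial cells, where a level like that of CMs was not detectable.

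**Figure D2:**
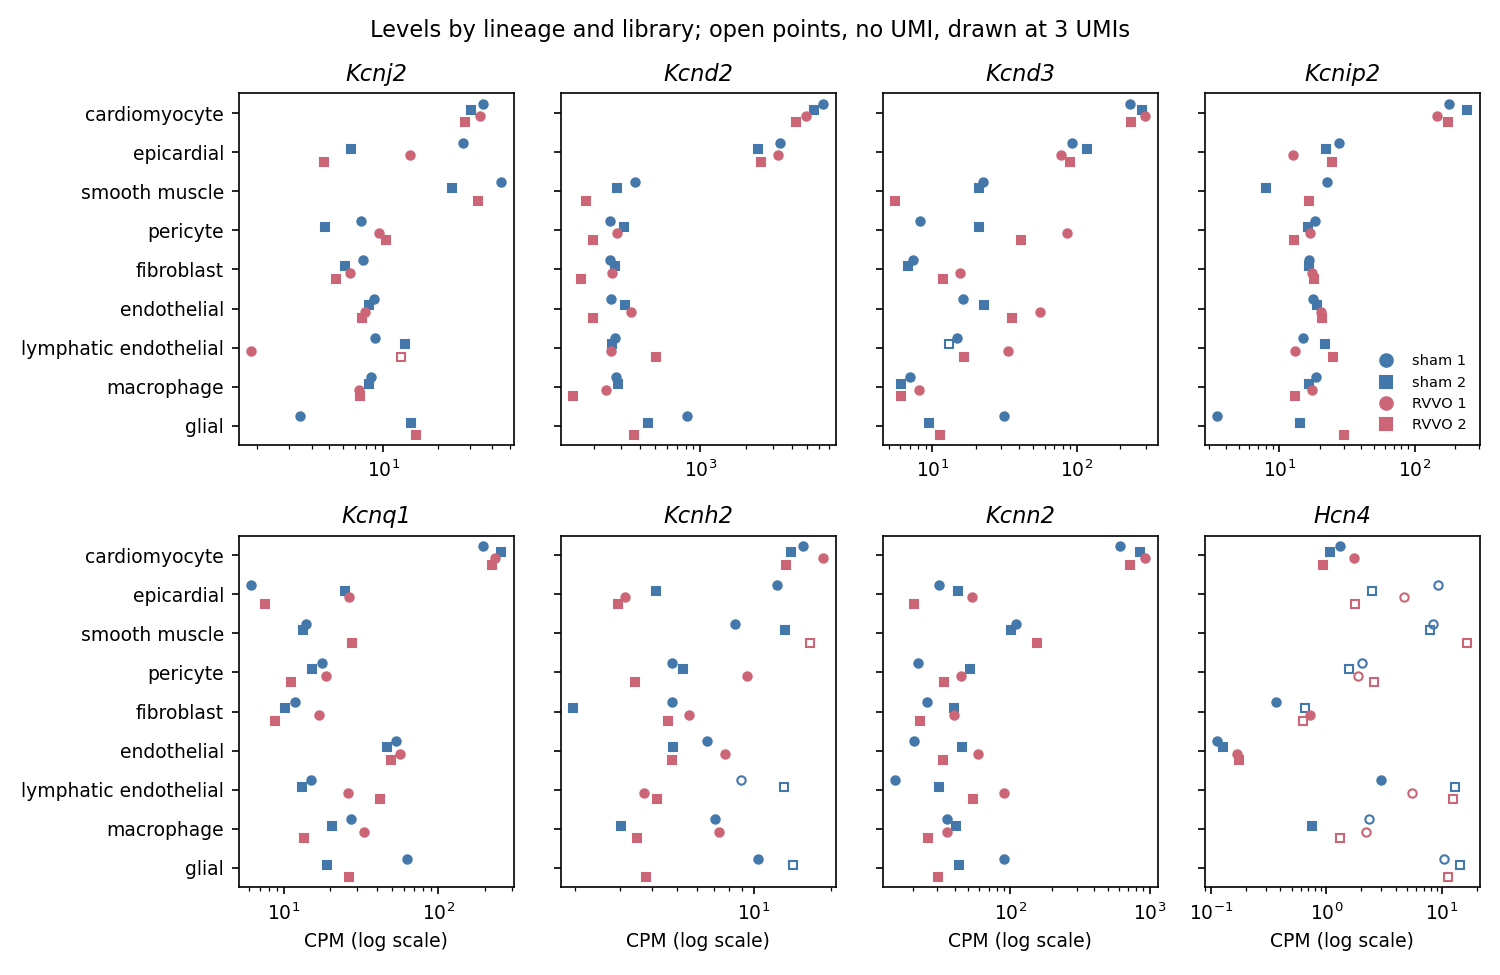
CPM (log axis) of each gene in 9 lineages, with 1 point for each library with at least 50 nuclei, and open points for no UMI drawn at the level of 3 UMIs. Among filled points, CMs were highest for Kcnd2, Kcnd3, Kcnip2, Kcnq1, Kcnh2 and Kcnn2. Open points mark a limit and not a level, and for Kcnh2 such a point can lie above those of CMs. Epicardial cells came next for Kcnd2 and Kcnd3, and smooth muscle cells overlapped with CMs for Kcnj2.

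The genes whose pattern was most like each member were found by Pearson correlation of log2(CPM + 1) over the 34 sums. The values are a description, since sums of 1 library share its depth and lineages set the pattern. Kcnd2 was nearest to Pdzrn4 (r = 0.96), then Tmem117, and Kcnn2 to Corin (r = 0.97), the protease that activates natriuretic peptides, then Rbm24 and Nfyc. Kcnq1 was nearest to Lrrc3b (r = 0.90), then Acacb and Fgf14, and Kcnip2 to Dnaja2 (r = 0.89), then AA672651 and Lrrc2. Kcnd3 was nearest to Pkp2 (r = 0.84), a desmosome protein of the intercalated disc, then Lmo7 and Plscr2. Kcnj2 was nearest to Cav3 (r = 0.80), the caveolin of muscle, then Ky and Prkaa2, and Kcnh2 to 2500002B13Rik (r = 0.85), then Mrps33 and D3Ertd751e.

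Outside CMs, Kcnd3 was higher in both RVVO libraries in pericytes, endothelial cells and fibroblasts, and none of these differences passed the edgeR test. These lineages come from the same libraries, so their differences are not independent of each other. Pericytes, the cells that wrap capillaries, had 8.20 and 21.1 CPM in the sham and 86.1 and 41.2 CPM in the RVVO libraries. The groups did not overlap, and 17.1% of genes with at least 40 UMIs there were likewise higher in both RVVO libraries. Each group held a library about 2 times the other or more. The means were 14.6 ± 9.12 and 63.7 ± 31.7 CPM (SD, n = 2 each), with a log2 fold change of 2.07 and an SE of 0.42 (edgeR adjusted p = 0.155). It passed with no filter on low counts (2.06), and also without sham 1 (1.62) and without sham 2 (2.94), where the 1 sham library left is assumed to vary like the RVVO pair. Adjusted p ran from 3.6e-11 to 0.478 over 9 alternatives.

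In endothelial cells Kcnd3 had 16.2, 22.7, 55.4 and 35.5 CPM, again with no overlap between the groups. There 27.0% of genes with at least 40 UMIs were higher in both RVVO libraries. The means were 19.4 ± 4.56 and 45.4 ± 14.1 CPM (SD, n = 2 each), with a log2 fold change of 1.15, an SE of 0.26 and an interval of 0.53 to 1.78 (edgeR adjusted p = 0.151). DESeq2 called it (adjusted p = 0.0107), as did edgeR without RVVO 2 (adjusted p = 0.0415), where the spread comes from the sham pair alone. In fibroblasts the values were lower, at 7.38, 6.75, 15.5 and 11.9 CPM. The groups did not overlap there either, beside 18.1% of genes higher in both RVVO libraries. The log2 fold change was 0.93 with an SE of 0.29 (edgeR adjusted p = 0.839). Epicardial cells and CMs did not follow: epicardial Kcnd3 was lower in both RVVO libraries, beside 14.5% of genes there (log2 fold change -0.35, SE 0.25, edgeR adjusted p = 1). Macrophages had 7.01, 6.05, 8.03 and 6.09 CPM, which overlapped and were too low for the test between RVVO and sham. In smooth muscle cells, glial cells and B cells, which that test did not cover, Kcnd3 overlapped between the groups. Sham and RVVO means there were 21.8 and 23.6, 20.3 and 27.8, and 11.4 and 4.84 CPM. By CPM, both RVVO values were higher in 2 other small lineages where that test did not cover this gene. Lymphatic endothelial cells held 5, 0, 18 and 4 Kcnd3 UMIs, so the order held there in CPM but not in UMIs of sham 1 and RVVO 2. Adipocytes, with 12 to 51 nuclei per library, held 0, 2, 41 and 8, of which the 41 in RVVO 1 came from 4 nuclei.

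The difference between lineages in the RVVO effect on Kcnd3 was itself tested, and it did not pass. The effect in pericytes exceeded that in CMs by a log2 of 2.11 with an SE of 0.42 (edgeR adjusted p = 1). In endothelial cells the excess was 1.17 with an SE of 0.21 (edgeR adjusted p = 0.919), and in fibroblasts 0.9996 with an SE of 0.24 (adjusted p = 0.980). The test called 0.0% of all genes in each of these lineages. In lymphatic endothelial cells the excess was 1.64 with an SE of 0.63 (edgeR adjusted p = 0.546), in a test that called 0.2% of all genes. The summed CM markers in pericytes were 22213, 14020, 18216 and 16171 CPM, in endothelial cells 22725, 15492, 20676 and 17874, and all 8 were found in each library. Kcnd3 stood at 3.53% to 28.9% of its CM level in pericytes and 6.99% to 18.6% in endothelial cells, within the range of the reference genes, and the part of free CM RNA in the differences was not tested. RVVO 1 was the deepest library and held the highest Kcnd3 value in pericytes, endothelial cells and fibroblasts, and the part of depth in it was not tested. The antisense Kcnd3os overlaps Kcnd3 and had 2, 0, 2 and 5 UMIs in endothelial cells and 0, 0, 0 and 1 in pericytes, far fewer than Kcnd3.

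**Figure D3:**
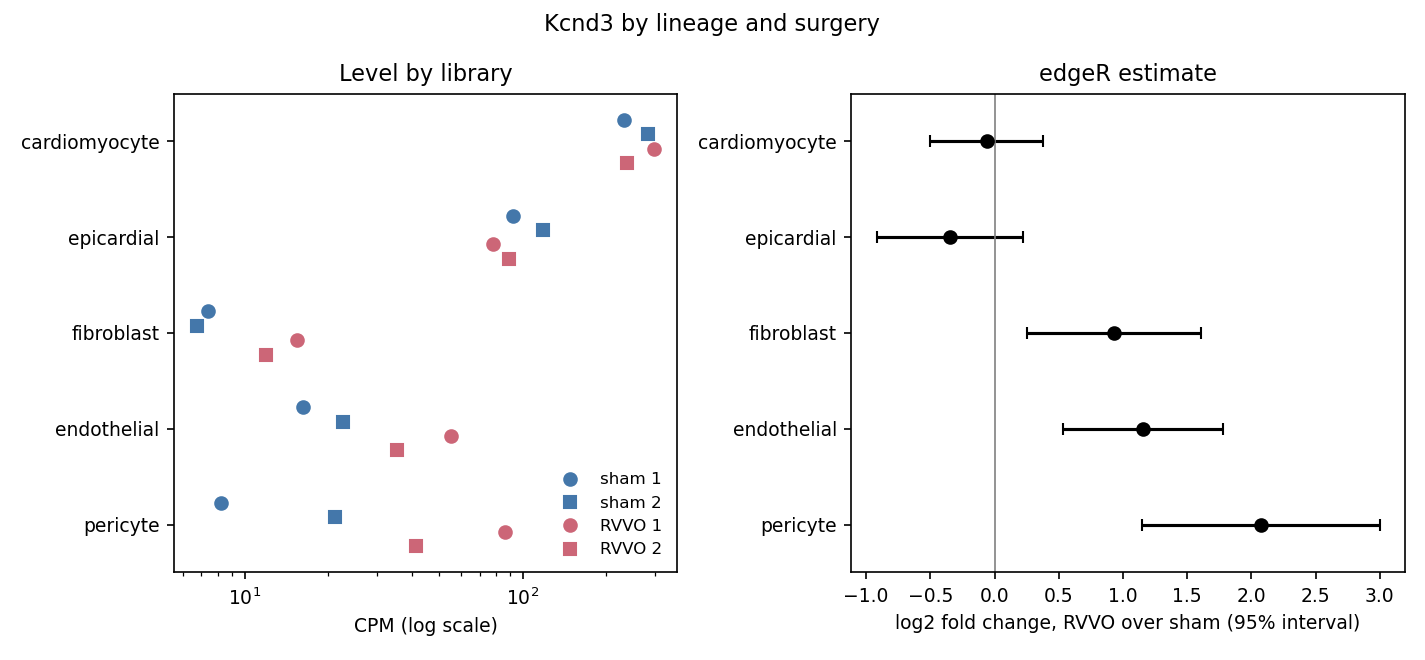
Left, Kcnd3 CPM (log axis) in each library for 5 lineages; right, the edgeR log2 fold change of RVVO over sham with its 95% interval. In fibroblasts, endothelial cells and pericytes both RVVO points lie to the right of both sham points and the interval lies above 0, and in CMs and epicardial cells the interval includes 0.

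Of the other genes, Kcnn2 in lymphatic endothelial cells had 14.9, 30.6, 90.7 and 54.3 CPM, from 5, 7, 49 and 13 UMIs in 68 to 98 nuclei. The RVVO libraries were higher without overlap, beside 17.5% of genes with at least 40 UMIs there, and most of the UMIs came from RVVO 1. These values were 2.43% to 9.74% of the CM level and in no library exceeded the percentage of all 6 reference genes. The part of free CM RNA in the difference was not tested. The log2 fold change was 1.80 with an SE of 0.49 (edgeR adjusted p = 0.539), and it passed without sham 2 (2.32) and without RVVO 2 (2.07), each time with 1 library in a group and the spread from the other group alone. The excess over CMs was 1.70 with an SE of 0.45 (edgeR adjusted p = 0.0617), in a test that called 0.2% of all genes. Kcnd2 in macrophages had 280, 287, 239 and 145 CPM, lower in both RVVO libraries, beside 15.9% of genes there. The log2 fold change was -0.59 with an SE of 0.25 (edgeR adjusted p = 0.681). At 3.39% to 5.12% of the CM level, these macrophage values were within the range of the reference genes.

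The edgeR test called 0 members of 7 tested in endothelial cells (0.278% of all genes), 0 of 2 in lymphatic endothelial cells (0.123%), 0 of 7 in fibroblasts (0.1%), 0 of 6 in epicardial cells (0.104%), 0 of 6 in pericytes (0.0949%) and 0 of 5 in macrophages (0.0837%). At an unadjusted p under 0.05, 1 member passed in endothelial cells (9.73% of all genes), lymphatic endothelial cells (5.27%), fibroblasts (4.19%), pericytes (4.8%) and macrophages (7.24%), and 0 in epicardial cells (2.85%). DESeq2 called 1, Kcnd3 in endothelial cells. Both RVVO values lay above both sham values for 2 of 7 members with at least 40 UMIs in endothelial cells (27.0% of all genes), 2 of 7 in fibroblasts (18.1%), 2 of 6 in pericytes (17.1%) and 1 of 2 in lymphatic endothelial cells (17.5%), and for 0 of 5 in epicardial cells (15.6%) and 0 of 6 in macrophages (20.6%). They lay below for 3 of 6 in macrophages (15.9% of all genes), 1 of 7 in endothelial cells (11.9%) and 1 of 5 in epicardial cells (14.5%), and for 0 of 7 in fibroblasts (12.6%), 0 of 6 in pericytes (13.6%) and 0 of 2 in lymphatic endothelial cells (16.3%).

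Among CMs, 2 groups of nuclei differed from the rest in these genes. Clustering of the CMs alone, again without the 8 genes and the channel list, gave a cluster of 265 nuclei with atrial markers (0, 112, 20 and 133 per library) and a cluster of 304 led by the axon guidance genes Slit2 and Sema3a (46, 38, 82 and 138). The second was labelled by these leading genes and not by a cell type. Its highest marker score was for conduction-like CMs, at 0.9 (mean log2 difference of the markers from the median of the other CM clusters). Of the conduction markers only 1 was detected and raised in it, and Etv1 from that list was among its leading genes. Another 672 CMs lay in clusters mixed with another lineage and were left out of the rest. The rest still held clusters with Nppa among their leading genes whose highest score was atrial-like, below the limit for that name. These were a cluster of 1263 nuclei (score 1.66, 1184 nuclei in RVVO 2) and another of 2042 (score 0.759, 1917 in RVVO 2). The clusters come from other genes of the same nuclei, and the comparison for the Slit2 and Sema3a cluster was chosen after the data were seen, so all differences below are descriptions, with the number past the edgeR threshold given as a summary.

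Atrial-like nuclei had less of the 2 partners of the transient outward current. Kcnd2 stood at 1735, 2093 and 910 CPM in sham 2, RVVO 1 and RVVO 2, against 5823, 5522 and 4570 CPM in the other CMs of these libraries. It was lower in each library, by a log2 of -1.96 with an SE of 0.12. Kcnip2 had 63.1, 80.9 and 49.8 CPM against 255, 163 and 189 CPM, which was a log2 of -1.90 with an SE of 0.18 and again the same direction in every library. Kcnd3 had 220, 259 and 113 against 283, 326 and 242 CPM, a log2 of -0.73 with an SE of 0.14 that no longer passed after thinning and without RVVO 2.

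Kcnh2 went the other way, at 27.0, 64.7 and 35.4 CPM against 13.2, 19.8 and 12.8 CPM. This was a log2 of 1.27 with an SE of 0.29, higher in each library, and it did not pass after thinning. Kcnq1 (log2 0.13), Kcnj2 (-0.36) and Kcnn2 (0.08) did not pass, and Hcn4 had 0 UMIs in these nuclei, which allows up to 2.20 CPM over the 3 libraries (3 UMIs). In all, 4 of 7 members passed the threshold, 3 lower and 1 higher, beside 16.5% of all genes, and 2 of them after thinning.

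Other channel genes set the atrial-like nuclei apart by more. Of 29 tested, 8 were higher and 8 lower. Fgf12, a partner of sodium channels, had 2315, 3295 and 2773 CPM against 2.42, 0.620 and 3.28 CPM in the other CMs, a log2 of 10.29 with an SE of 0.18. Over all CMs, Fgf12 stood at 0.489, 82.5, 21.7 and 84.6 CPM, in the order of the numbers of atrial-like nuclei in the libraries. Kcnj3, a pore subunit of the acetylcholine-activated potassium channel of the atrium, had 2999, 2794 and 3215 against 238, 347 and 156 CPM (log2 3.56, SE 0.13). The sodium channel genes Scn10a (3.20, SE 0.75) and Scn3b (-3.04, SE 1.14) rested on few UMIs, and each lost its call in at least 1 alternative. Without the atrial-like nuclei, the log2 fold change between RVVO and sham over CMs was -0.50 for Kcnd2 and -0.52 for Kcnip2.

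The Slit2 and Sema3a cluster shared the low Kcnd2 and Kcnip2. Kcnd2 had 2782, 2133, 2476 and 2049 CPM there, against 6684, 5823, 5522 and 4570 CPM in the other CMs, a log2 of -1.32 with an SE of 0.08. Kcnip2 had 71.1, 107, 89.0 and 120 CPM against 192, 255, 163 and 189 CPM, a log2 of -1.01 with an SE of 0.12. Both were lower in all 4 libraries. Kcnd3, Kcnj2, Kcnq1, Kcnh2 and Kcnn2 did not pass, with log2 differences of 0.01 to 0.37.

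Hcn4 was the third gene past the threshold in this cluster, and the only one of the 3 that was higher. It had 6.46, 3.82, 7.63 and 5.70 CPM against 1.18, 1.05, 1.77 and 0.688 CPM, from 2, 1, 6 and 5 UMIs, so each library value is uncertain. The exact Poisson interval in RVVO 1 was 2.80 to 16.6 CPM. The log2 difference was 2.35 with an SE of 0.63 (edgeR adjusted p = 0.00346), and without RVVO 2 it was 2.09 and did not pass. The filter on low counts used these same sums, so Hcn4 could enter the test through its higher level in this cluster, and its call is no support for that level. In all, 3 of 8 members passed, with Hcn4 among them, beside 8.53% of all genes.

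Of 27 other channel genes tested in the Slit2 and Sema3a cluster, 9 were higher and 2 lower. Scn10a, a sodium channel gene known from sensory neurons and the conduction system, had 71.1, 57.3, 14.0 and 27.4 CPM against 1.34, 1.57, 0.573 and 0.582 CPM, a log2 of 5.22 with an SE of 0.37. Kcnip4, of the same family as Kcnip2, was higher by 2.77 with an SE of 0.21. The inward rectifier Kcnj12 (1.001, SE 0.15) and the pacemaker channel gene Hcn2 (0.82, SE 0.17) were higher as well, and both calls were lost after thinning.

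**Figure D4:**
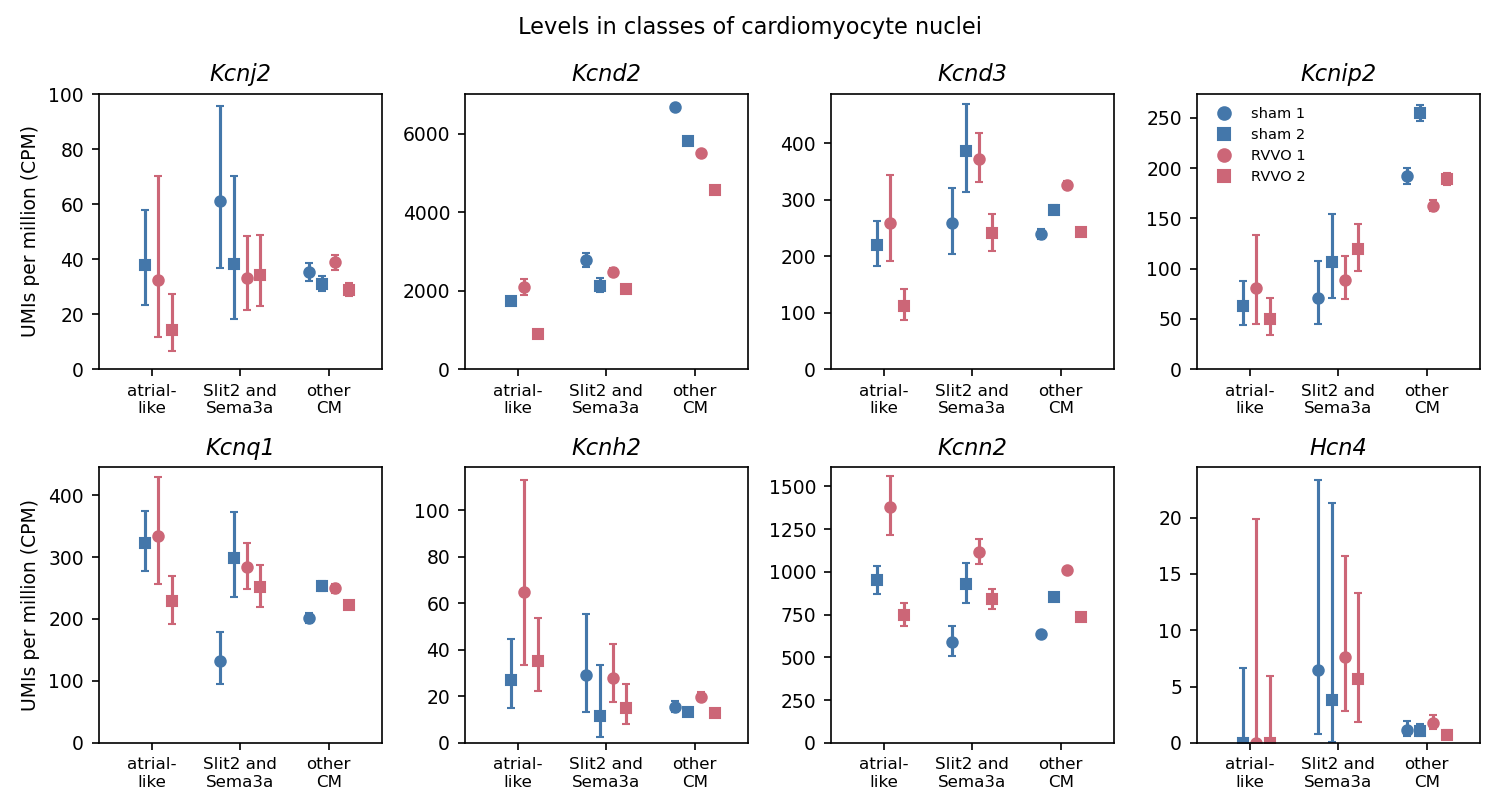
CPM of each gene in atrial-like nuclei, in the Slit2 and Sema3a cluster and in the other CMs, with 1 point per library with at least 20 nuclei and bars for the exact 95% Poisson interval. Kcnd2 and Kcnip2 were lower in both small classes than in the other CMs of the same library, Kcnh2 was higher in the atrial-like nuclei, and Hcn4 had its highest points in the Slit2 and Sema3a cluster.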

How the data were processed

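Nuclei from the RVs of 2 sham and 2 RVVO libraries were sequenced with the 10x 3′ v3 chemistry. The matrices deposited by the authors hold raw counts of UMIs per gene and barcode, not normalized. The file headers name Cell Ranger 5.0.0, while the submitters' processing notes list Cell Ranger 3.0.1, STAR and Seurat 3.0.2. No source used here states the build, or whether introns and strand entered the counting. Positions are those of GRCm38 in GENCODE, which holds 27645 of the 27998 genes. Levels rest on 14316443 to 29970686 CM UMIs per library, and Poisson intervals cover counting error only.

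Filters required 200 genes per barcode and a mitochondrial share under 10%, and the highest doublet scores were removed at 0.8% per 1000 barcodes. Clusters (2000 variable genes, 30 principal components, 15 neighbours, Leiden resolution 1) were found without the 8 genes and the channel list and named from marker lists. Erythroid markers were dropped as a competing class, and clusters other than CMs with a median UMI count over 2 times that of all nuclei were left unnamed, both after the clusters were seen.

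UMI counts were summed per library and lineage and tested with edgeR 4.0.16 in R 4.3.3 (quasi-likelihood test after TMM scaling and filterByExpr, with p-values adjusted by Benjamini-Hochberg over all genes tested). A gene was called at an adjusted p under 0.05. CPM is UMIs per 1000000. Lineages and CM classes were compared with the library as a block. A test of the difference in effect between a lineage and CMs used both in 1 fit. Alternatives were DESeq2 1.42.0, relative log expression scaling, no filter, a replicate block, other Ryr2 limits (0.5% and 2%), stricter filters, no doublet removal, thinning and leaving out each library, and, added after the data were seen, leaving out mixed clusters and atrial-like nuclei. The procedure was also run on counts simulated from the mean levels of the real fits and the trend of their spread with level. Changes were planted only in genes above a count limit, and spread particular to a gene or a library was not simulated. Recovery and false calls in the real data can thus differ from those given here. Between RVVO and sham in CMs the procedure recovered 26% of planted log2 changes of 1 and 84% of those of 2. Between CMs and fibroblasts it recovered 97% and 99%. Of the calls, 3.5% and 4.9% were false.

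The 8 genes, the lists and the named genes were chosen with earlier results of these data known. Named were the 8 genes in every lineage, up to 5 called channel genes by size in a comparison, and 3 genes of like pattern per member. Some named by this rule are not reported here. The 7 called genes and the leading genes of clusters fall outside this rule and were named after their values were seen. Python 3.11.15 and scanpy 1.11.5 were used.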

Additional observations from a re-analysis of the deposited data

How the results depend on the processing

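Of 1208 settings of 119 values, 1105 were rated the same. For fold changes this meant the same sign and side of the threshold, for shares the same sign, and for counts a small ratio to the main count. Of the 1105, 737 were fold changes other than those of the 8 genes between RVVO and sham in CMs. Among the remaining values, 368 settings were the same, 39 turned sign and 40 moved a count. Over the 16 alternatives in CMs, Kcnd2 and Kcnip2 stayed lower in RVVO and 0 of the 8 genes was called, while the genes called in all were 52 with DESeq2. The other members have log2 fold changes near 0, and their sign turned. Kcnj2 was 0.128 when thinned. Kcnd3 was 0.0975 at the Ryr2 limit of 2%, 0.0830 in named clusters, 0.0672 when thinned and 0.0664 without mixed clusters, and Kcnq1 was 0.0424 in named clusters and 0.00814 without mixed clusters. Kcnh2 was -0.00478 with DESeq2, -0.00232 with no filter, -0.0163 with no doublet removal, -0.272 when thinned and -0.0184 without atrial-like nuclei. At the limit of 0.5% Kcnn2 was -0.00437 and Hcn4 -0.156. Leaving out 1 library gave -0.22 to 0.10 for Kcnd3, -0.31 to 0.12 for Kcnq1, -0.22 to 0.19 for Kcnh2, -0.19 to 0.33 for Kcnn2 and -0.43 to 0.38 for Hcn4.

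The library numbers 1 and 2 share only a number in the labels, and the deviations of same-numbered libraries correlated at r = 0.32 over 14786 genes of CMs. With the replicate block 7 genes were called in CMs and 0 of the 8 members, and Kcnh2 was at -0.0121. The block gave 69 genes in endothelial cells, 49 in epicardial cells and 8 in fibroblasts.

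Counts of called genes in other lineages depended on the settings. DESeq2 called 254 in endothelial cells (1 member), 45 in fibroblasts and 22 in macrophages. With no filter there were 43 in lymphatic endothelial cells, 201 in fibroblasts, 70 in epicardial cells, 117 in pericytes (1 member) and 217 in macrophages, and with no doublet removal 11 in lymphatic endothelial cells. Leaving out 1 library gave 88 to 219 in endothelial cells, 29 to 61 in lymphatic endothelial cells, 8 to 120 in fibroblasts, 7 to 31 in epicardial cells, 6 to 108 in pericytes and 12 to 374 in macrophages, with 0 to 1 member in endothelial cells, in lymphatic endothelial cells and in pericytes. The cause was not tested. Thinning left 2 members called in atrial-like nuclei.

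The share of CMs with a UMI, RVVO minus sham in percentage points, turned sign at 2000 UMIs for Kcnj2 (-0.356), Kcnh2 (0.349) and Hcn4 (-0.0132), without thinning for Kcnd2 (2.32), Kcnip2 (4.07) and Kcnh2 (4.15), and at the limit of 2% for Kcnd2 (0.555) and Kcnh2 (0.108). Leaving out 1 library gave -0.550 to 3.93 for Kcnd3, -3.02 to 4.42 for Kcnq1, -0.523 to 0.0601 for Kcnh2, -1.41 to 10.9 for Kcnn2 and -0.0689 to 0.103 for Hcn4.

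With 2 libraries a group, the smallest permutation p is 0.3333. Sex and surgery cannot be told apart. Leaving out 1 library leaves 1 in its group, which is then assumed to vary like the other group. Hcn4 and the genes of small lineages rest on few UMIs.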
